A study of Mus musculus with 25 samples.

Results

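The 78 genes described here encode the proteins of the cytosolic ribosome in mouse sciatic nerve, and were 78 of the 56956 genes counted. They were chosen by name and level, with earlier results of these data known. The rule took a protein-coding gene whose symbol is Rpl or Rps with a number, or Rpsa, Rplp0, Rplp1 or Rplp2, and whose mean over the 25 libraries was at least 5 CPM (counts of the gene scaled to a common library total). Pseudogenes and the Rps6k kinases were left out. Of the 78 members, 32 encode small subunit proteins (Rps and Rpsa) and 46 large subunit proteins (Rpl and Rplp). RNA came from whole sciatic nerves of mouse models of Charcot-Marie-Tooth disease type 1A, an inherited neuropathy caused by extra copies of the myelin gene PMP22. There were 5 groups, each with 1 library per age (3, 5, 7, 9 or 12 weeks), made from a pool of 4 or 5 animals of both sexes, so that tests between groups take the 5 ages as replicates, and their p-values measure the spread between ages and pools alike. WT-C3 were C57BL/6J mice without the transgene, and C3 were C57BL/6J mice of the line B6.Cg-Tg(PMP22)C3Fbas/J, with 5 additional copies of human PMP22. C3-cJunKO mice carried the C3 transgene and had lost c-Jun from their Schwann cells through P0Cre, whose promoter is active in Schwann cells; no c-Jun knockout without the transgene was among the groups, and their strain background is not named in the labels. WT-C22 were FVB/NRJ mice without the transgene, and C22 were FVB/NRJ mice with Tg(PMP22)C22Clh, which adds 10 copies of human PMP22. The C3 line arose as a partial revertant of C22, and both carry the human gene in a yeast artificial chromosome. Copy number and mouse strain therefore cannot be told apart wherever C22 is set against C3.

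Ribosomal proteins are needed in nearly equal numbers, because each ribosome holds about the same complement of them, and their mRNAs are among the most abundant of most cells. Most of these mRNAs are short and begin at a C followed by a run of pyrimidines, the terminal oligopyrimidine (TOP) motif, through which mTORC1 and LARP1 control their translation as a group. In peripheral nerve, growing Schwann cells use the same mTORC1 pathway to time radial sorting and the growth of the myelin sheath. Ribosomal protein genes also have many processed pseudogenes, copies of their mRNAs inserted elsewhere in the genome, which can compete with the parent gene for sequenced fragments.

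Libraries held 9001002 to 49072746 counts on genes, except for the C3 library of 9 weeks, with 2140142. That library stood apart also in the share of counts on ribosomal protein pseudogenes, 0.0568% against 0.00889 to 0.0126% in the other C3 libraries, so the counts, medians and trends with length that rest on C3 are given with and without it, and so are the fitted differences of most genes called in C3. Human PMP22 was at 10650 to 13890 CPM in C3, 8213 to 14860 CPM in C3-cJunKO and 10660 to 14270 CPM in C22, and at 0.0382 to 5.87 CPM in the 10 control libraries. The ranges of C3 and C22 overlapped, although the lines carry 5 and 10 additional copies. Jun was at 28.9, 30.6, 27.5, 28.4 and 33.1 CPM in C3-cJunKO and at 93.5, 114, 112, 125 and 111 CPM in C3, a log2 difference of -1.90 ± 0.09 (SE, edgeR quasi-likelihood test with Benjamini-Hochberg adjustment, adjusted p = 7.29e-07). All 9 markers of myelinating Schwann cells were measured, with a summed level from 25463 CPM in the lowest C22 library to 98205 CPM in the highest WT-C3 library.

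The shortest coding sequences of the set are shown because the median difference between groups was largest in the members of up to 250 bases. Coding length ran from 75 bases in Rpl41 to 1257 bases in Rpl4, with a median of 453 bases. The 2 shortest are printed whole, from the start codon and without the stop codon, as spliced from the GENCODE M39 annotation of GRCm39. Rpl41 (chr10:128383979-128387628, minus strand) encodes a basic peptide at the surface between the subunits, and Rpl39 (chrX:36345092-36349130, minus strand) a protein of the exit tunnel of the large subunit.
Rpl41: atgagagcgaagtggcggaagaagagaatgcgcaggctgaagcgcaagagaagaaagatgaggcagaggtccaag
Rpl39: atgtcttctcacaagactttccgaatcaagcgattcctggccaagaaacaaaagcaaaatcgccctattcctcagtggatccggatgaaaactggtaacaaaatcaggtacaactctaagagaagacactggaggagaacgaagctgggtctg
A C followed by at least 7 pyrimidines, starting within 20 bases of the annotated start on the strand of the gene, was found in 30 of the 57 members with a promoter in the RefSeq table of GRCm38.p6, or 52.6%. The same run was found in 4490 of all 27025 promoters, or 16.6%. Windows of 30 bases around the run are shown for 6 members, with the run in capitals. Values of these members are given below, except for Rplp2. Their places on GRCm38.p6 are Rpl38 chr11:114668572-114668601 (plus strand), Rps27 chr3:90213629-90213658 (minus strand), Rps6 chr4:86857347-86857376 (minus strand), Rpl15 chr14:18270969-18270998 (minus strand), Rplp2 chr7:141447639-141447668 (plus strand) and Rpl22l1 chr3:28805503-28805532 (plus strand).
Rpl38: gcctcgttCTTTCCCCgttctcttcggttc
Rps27: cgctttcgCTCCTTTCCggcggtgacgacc
Rps6: aagtcgggCCTCTTTTTCgtgacgcctccc
Rpl15: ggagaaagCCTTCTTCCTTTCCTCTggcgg
Rplp2: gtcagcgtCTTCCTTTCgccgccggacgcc
Rpl22l1: agcccgttCTCTTCCCacggctgcagctca
The match is a description of these letters, and the study measured no start sites.

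Per kilobase of coding sequence, the highest mean levels over the 25 libraries were those of Rplp1 with 804 CPM, Rpl41 with 779 CPM and Rplp0 with 779 CPM, of which Rplp0 and Rplp1 form the stalk that recruits elongation factors. The lowest were those of Rps4l with 17.9 CPM, Rps27l with 67.8 CPM and Rpl22l1 with 69.2 CPM per kilobase, which are paralogues of Rps4x, Rps27 and Rpl22. Core members lay between these extremes over a wide range, such as Rpl19 with 106 CPM and Rps4x with 549 CPM per kilobase. Just inside the limit of 5 CPM were Rps4l with a mean of 14.0 CPM and Rps27l with 17.1 CPM. Just outside were Rps10 with 4.33 CPM, Rpl13a with 3.91 CPM and the muscle paralogue Rpl3l with 2.57 CPM, followed by Rpl24 with 0.272 CPM, Rpl39l with 0.0733 CPM and Rpl10l with 0 CPM. Of these, 92.1% of the coding bases of Rps10, 97.5% of those of Rpl13a and 83.4% of those of Rpl24 lie inside exons of another annotated gene on the same strand in GENCODE M39, and fragments that fit more than 1 gene were not counted. What part this had in their low values was not tested. Among the 78 members only Rpl19 had such an overlap, over 13.6% of its coding bases.

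**Figure D1:**
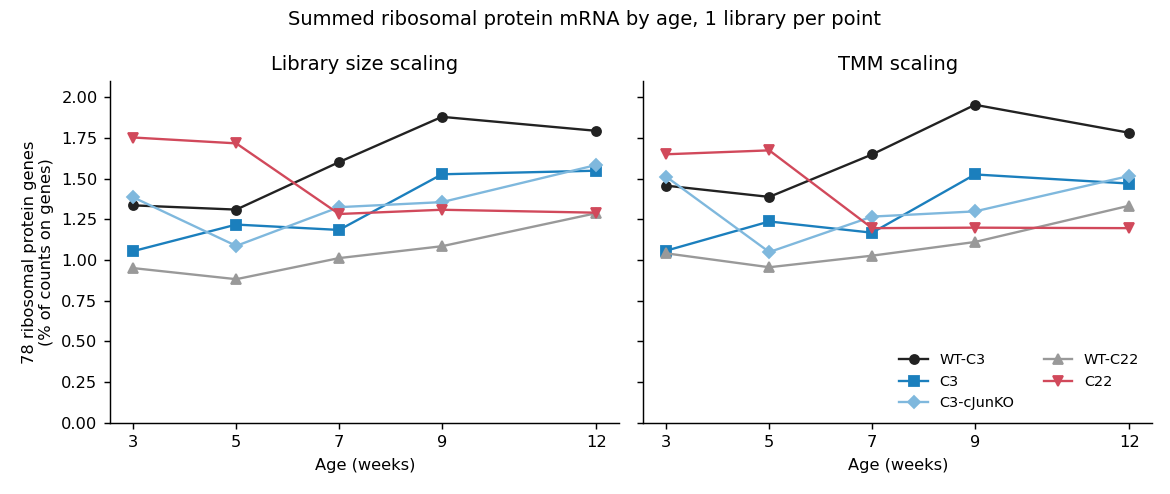
Percent of all counts on genes that fell on the 78 members, by age in weeks, with 1 library per point, scaled by library size (left) and by TMM (right). WT-C3 lies above C3 at every age, and C22 starts at 1.75% and ends at 1.29% with library size scaling while WT-C22 starts at 0.950%.

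Together the 78 genes took between 0.882 and 1.88% of the counts of a library. With library size scaling, the shares were, from the youngest to the oldest library, 1.34, 1.31, 1.60, 1.88 and 1.79% in WT-C3. In C3 they were 1.06, 1.22, 1.19, 1.53 and 1.55%. In C3-cJunKO they were 1.39, 1.09, 1.33, 1.36 and 1.58%. These 3 groups overlapped, and C3 was below WT-C3 at each of the 5 ages, at 0.740 to 0.930 times its share. In WT-C22 the shares were 0.950, 0.882, 1.01, 1.09 and 1.29%. In C22 they were 1.75, 1.72, 1.28, 1.31 and 1.29%. The C22 share was 1.84 times that of WT-C22 at 3 weeks, 1.95 times at 5 weeks and 1.00 times at 12 weeks. With TMM scaling, which rescales each library on the premise that most genes do not differ, the C22 share was 1.59 times that of WT-C22 at 3 weeks and 0.896 times at 12 weeks. At 12 weeks the C22 share was thus level with that of WT-C22 by library size and below it by TMM. The group means were 1.58% ± 0.259 (SD, n = 5) in WT-C3, 1.31% ± 0.220 in C3 (1.25% without its library of 9 weeks), 1.35% ± 0.177 in C3-cJunKO, 1.04% ± 0.156 in WT-C22 and 1.47% ± 0.242 in C22 with library size scaling. With TMM they were 1.65%, 1.29%, 1.33%, 1.09% and 1.38% in the same order. No test was made of the summed share.

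C3 nerves had less of most ribosomal protein mRNAs than WT-C3 nerves, and the differences were largest in the shortest of them. Of the 78 members, 43 were lower and 1 was higher at an adjusted p under 0.05, 56.4% of the members against 23.9% of all 13993 genes tested, and 55.1% lower against 11.4% of all genes (edgeR quasi-likelihood test with TMM factors and Benjamini-Hochberg adjustment over all genes). The median log2 difference of the members was -0.57, against 0.00 over all genes tested. Scaled by library size, 33 members were lower, 42.3% against 7.4% of all genes, and 1 higher (43.6% against 25.9% in either direction), with a median of -0.49 against 0.08 over all genes. In both subunits the medians were alike, at -0.58 in the small and -0.54 in the large subunit. The 1 member that was higher, Rpl19, differed by 0.27 ± 0.09 (SE, n = 5 per group, adjusted p = 0.0425) and kept its call with library size scaling, but lost it in 11 of the alternatives tried. Without the C3 library of 9 weeks 47 members were lower, 60.3% against 25.9% of all genes called in either direction. Of these, 43 were among the 44, and the median of the members was -0.64. Rpl19 was at 0.22 in that fit and no longer called (adjusted p = 0.0626). Without the C3 library of 5 weeks 26 were called (33.3% against 16.0% of all genes) and without that of 7 weeks 27 (34.6% against 17.5%). Without the WT-C3 library of 9 weeks 28 were called (35.9% against 17.8%).

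Members with the smallest adjusted p are given by library here. They were picked by this same difference, so their gaps do not stand for the set, whose median was -0.57. Rpl22l1, a paralogue of Rpl22 that can take its place in the large subunit, was at 43.0, 38.1, 39.1, 57.8 and 39.1 TMM-scaled CPM in WT-C3, given from the youngest to the oldest library as throughout. In C3 it was at 20.6, 19.8, 18.4, 24.8 and 27.7 CPM, so that the groups did not overlap, and the log2 difference was -0.98 ± 0.15 (SE, n = 5 per group, adjusted p = 0.000863), and the call held without the C3 library of 9 weeks (adjusted p = 0.00174). Rps15a, of the small subunit, was at 116, 122, 141, 148 and 155 CPM in WT-C3 and at 64.7, 68.5, 66.1, 91.5 and 101 CPM in C3. These ranges did not overlap either, with a difference of -0.81 ± 0.14 (SE, n = 5 per group, adjusted p = 0.00214), or -0.85 without the 9-week library. Rpl39 was at 48.0, 43.8, 54.6, 63.8 and 56.7 CPM in WT-C3. In C3 it was at 9.89, 8.18, 8.87, 30.8 and 21.4 CPM, highest in the shallow library of 9 weeks. The difference was -1.93 ± 0.32 (SE, n = 5 per group, adjusted p = 0.00168), and -2.14 without that library. Rps27, another zinc-binding protein of the small subunit, was at 77.5, 73.2, 97.0, 120.3 and 123 CPM in WT-C3 and at 18.3, 16.4, 17.8, 52.8 and 46.6 CPM in C3. It differed by -1.79 ± 0.34 (SE, n = 5 per group, adjusted p = 0.00352), again without overlap, and by -1.98 without the 9-week library. Rpl15 was at 136, 117, 139.7, 159 and 149 CPM in WT-C3 and at 77.5, 86.8, 80.7, 105 and 111 CPM in C3, and differed by -0.62 ± 0.12 (SE, n = 5 per group, adjusted p = 0.00361), or by -0.65 without that library.

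Rps29, a zinc-binding protein of the small subunit head, had the largest fitted difference of the set. It was at 51.0, 38.4, 52.5, 55.1 and 77.1 CPM in WT-C3 and at 3.88, 3.6, 3.01, 45.8 and 10.8 CPM in C3, where the library of 9 weeks was far above the others and inside the WT-C3 range. The log2 difference was -2.68 ± 0.64 (SE, n = 5 per group, adjusted p = 0.0115), and -3.38 (adjusted p = 0.000336) without that library. Rpl38, which is needed for the translation of Hox mRNAs in the embryo, was at 40.7, 34.4, 48.9, 53.9 and 54.2 CPM in WT-C3 and at 6.24, 5.81, 5.06, 37.4 and 14.8 CPM in C3. Again the library of 9 weeks alone reached the WT-C3 range. Its difference was -2.13 ± 0.46 (SE, n = 5 per group, adjusted p = 0.00672), and -2.55 without the C3 library of 9 weeks. Rpl41 was at 122, 84.5, 122, 139 and 139 CPM in WT-C3 and at 25.5, 26.2, 23.9, 123 and 51.2 CPM in C3, so that the groups overlapped through the 9-week library alone. Its difference was -1.42 ± 0.40 (SE, n = 5 per group, adjusted p = 0.0246), and -1.93 without it. At the other end, the long members Rpl3 and Rplp0 were not called. Rpl3, at the peptidyl transferase centre, was at 448, 482, 482, 630.2 and 555 CPM in WT-C3 and at 454, 486, 465, 478 and 493 CPM in C3, a difference of -0.13 ± 0.10 (SE, n = 5 per group, adjusted p = 0.349). Rplp0 was at 686, 634, 682, 840.1 and 558 CPM in WT-C3 and at 796, 812, 784, 743 and 722 CPM in C3, with a difference of 0.18 ± 0.10 (SE, n = 5 per group, adjusted p = 0.236). In these long genes the groups overlapped.

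**Figure D2:**
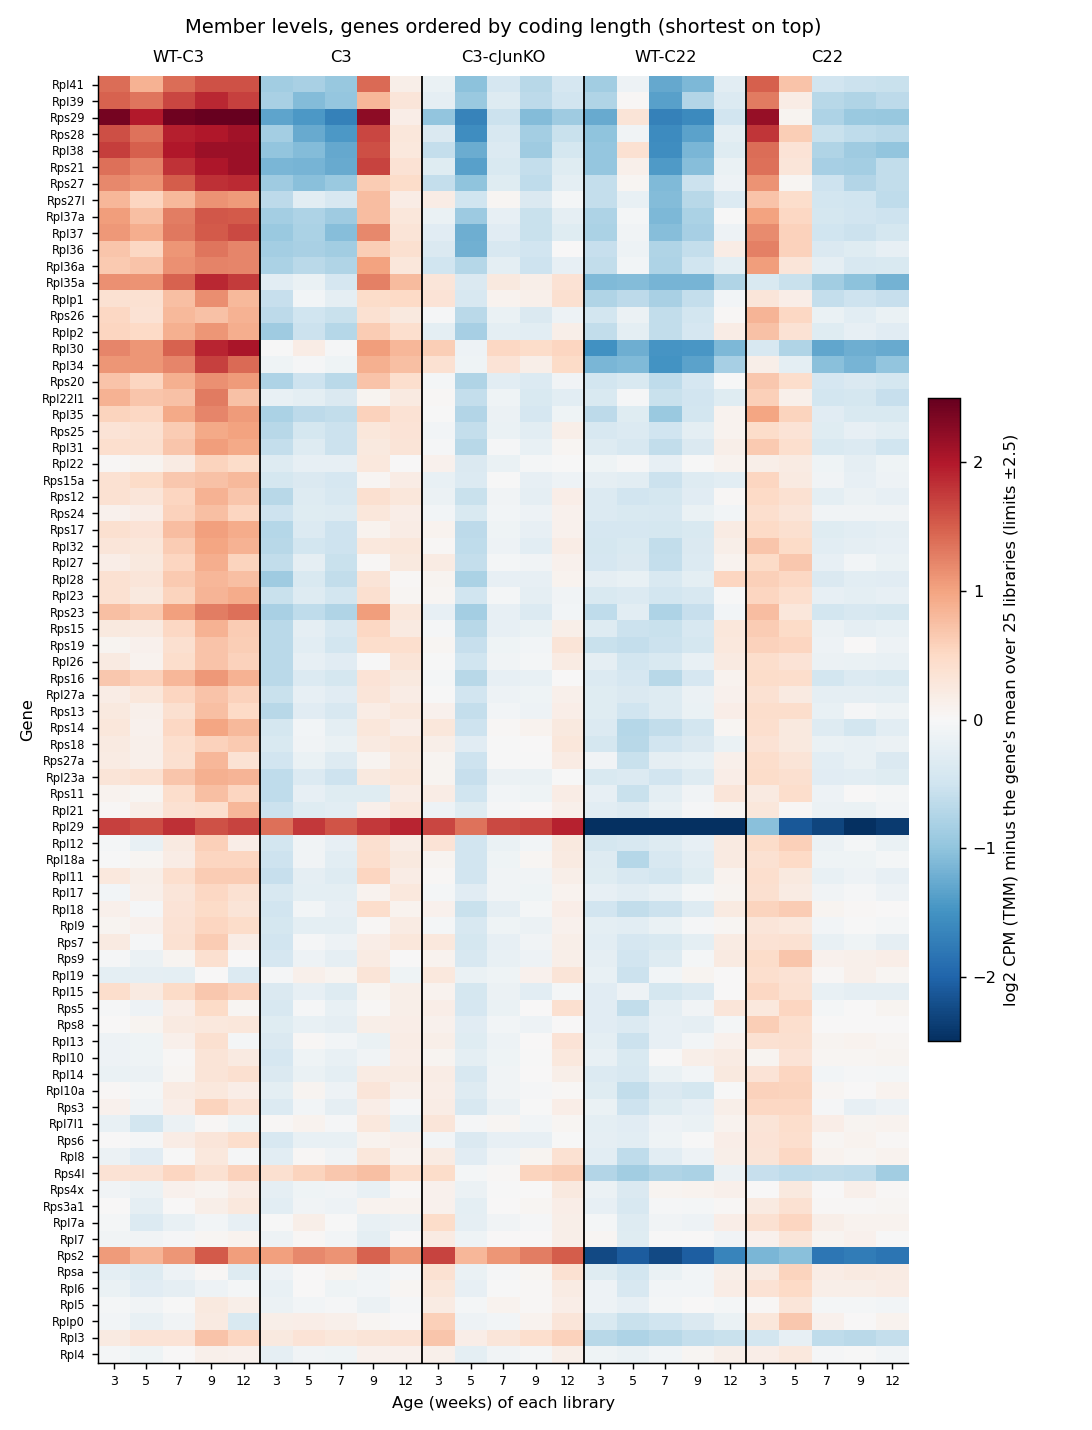
Each row is 1 of the 78 members, ordered from the shortest coding sequence (Rpl41, top) to the longest (Rpl4, bottom), and each column is 1 of the 25 libraries, grouped and ordered by age in weeks; colour is log2 TMM-scaled CPM minus the mean of the gene over all libraries. The short genes at the top are high in all 5 WT-C3 libraries, in C3 at 9 weeks and in C22 at 3 weeks, while Rpl29 and Rps2 are low in all 10 libraries of the FVB/NRJ groups.

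The size of the difference followed coding length across the whole set. In the 6 members with up to 250 coding bases the median log2 difference of C3 against WT-C3 was -1.97 and all 6 were called. In the 21 members of 250 to 400 bases it was -0.98 with 20 called, and in the 28 of 400 to 600 bases -0.54 with 17 called. In the 21 members of 600 to 1000 bases it was -0.11 with 1 called, and in the 2 longer members -0.10 with none called. Spearman's rho between the log2 difference and coding length was 0.928 over the 78 members, a correlation across genes, which share libraries and are not replicates. With the C3 library of 9 weeks left out rho was 0.930, and the medians of the 5 ranges of length were -2.43, -1.14, -0.59, -0.12 and -0.11, from the shortest to the longest, with 6, 21, 19, 1 and 0 members called. Protein-coding genes that encode no ribosomal protein moved the same way to a lesser degree: their median was -0.49 in 132 genes of up to 250 bases, -0.33 in 437 genes of 250 to 400 bases, -0.20 in 955 genes of 400 to 600 bases and 0.07 in 8912 genes over 1000 bases. Of these other genes 56.1, 41.2, 29.5, 22.5 and 23.5% were called in the 5 ranges of length, from the shortest to the longest. When an offset that followed the coding length of these other genes was set for each library, an alternative chosen after seeing the data, 25 members were lower and 2 higher. These were 34.6% of the members against 19.2% of all genes. Of the calls 26 were among the 44 made without the offset, and the median was -0.34. Rpl41 was no longer called with this offset, at -0.81 (adjusted p = 0.0874), nor without any 1 of the C3 libraries of 3, 5 and 7 weeks or the WT-C3 library of 9 weeks (adjusted p = 0.0561 to 0.0658).

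Sequencing depth moved with the short members too. The 6 members with up to 250 coding bases took 1.39 to 2.89% of all member counts (TMM-scaled) in the 7 libraries with the lowest totals (2140142 to 16264172 counts), which were the 5 of WT-C3, C3 at 9 weeks and WT-C22 at 5 weeks. In the other 18 libraries, of 20071744 to 49072746 counts, they took 0.473 to 2.26% with a median of 0.655%, and passed 1% in 3 of them: C3 at 12 weeks with 1.04%, C22 at 3 weeks with 2.26% and C22 at 5 weeks with 1.07%. Counts on 468 short genes outside the set, with up to 400 coding bases, made up 2.51 to 3.26% of the counts in the 7 libraries and 2.29 to 2.86% in the 18. WT-C3 and C3 did not overlap in depth, apart from the C3 library of 9 weeks, so depth and group cannot be told apart for the short members in C3 against WT-C3. At 9 weeks, where C3 had the shallower library, 71 of the 78 members were lower in C3, with a median log2 ratio of -0.40. In this pair of single libraries the 6 shortest members took 2.464% of member counts in C3 and 2.485% in WT-C3. Rps29 was at 45.8 CPM in C3 and 55.1 CPM in WT-C3. The part of transcript length and depth in the difference was not tested.

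**Figure D3:**
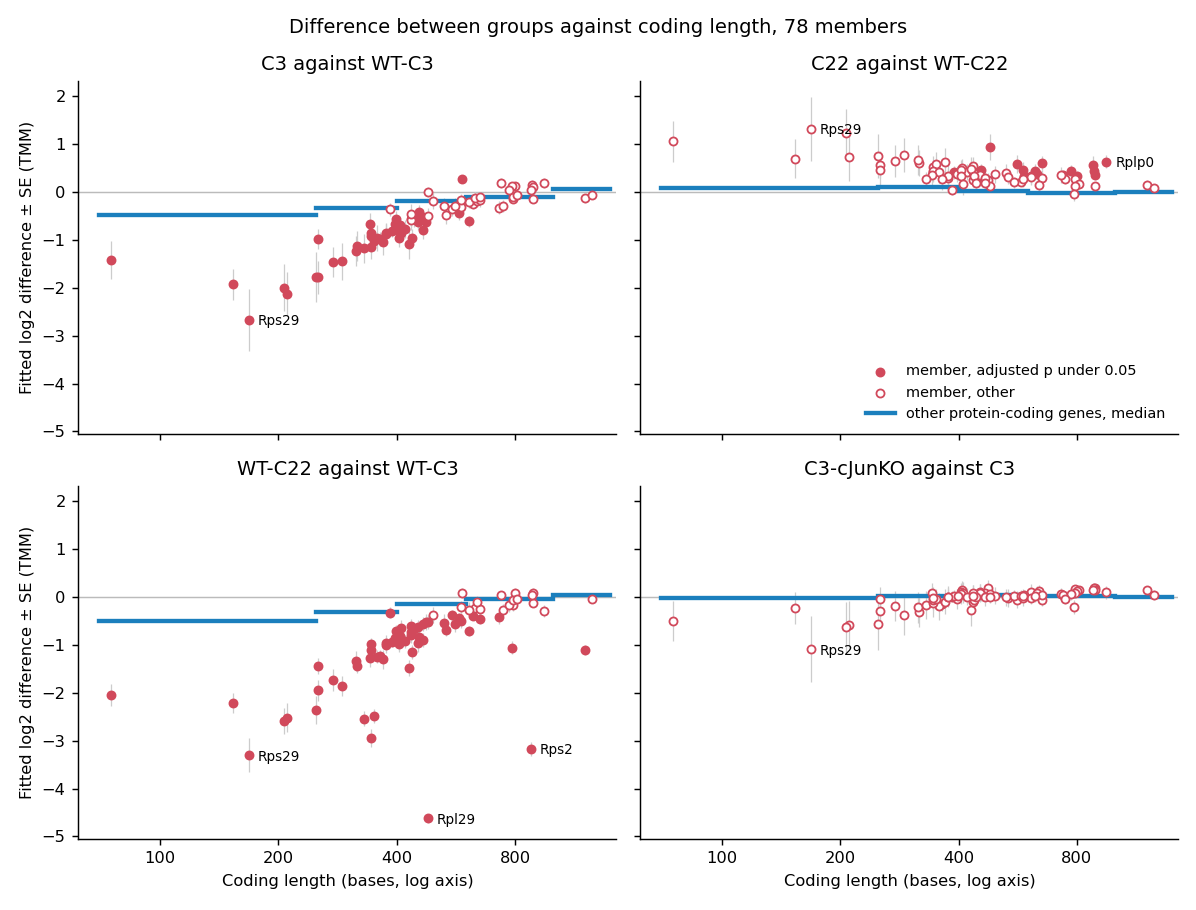
Fitted log2 difference with its SE (vertical axis, TMM scaling) against coding length in bases (horizontal log axis) for the 78 members in 4 comparisons; filled points passed an adjusted p of 0.05, and blue bars give the median of the other protein-coding genes in each range of length. In C3 against WT-C3 and in WT-C22 against WT-C3 the points fall away to the left, to -2.68 and -3.30 for Rps29, whereas in C3-cJunKO against C3 no member passed.

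No ribosomal protein mRNA differed past the threshold between C3-cJunKO and C3 nerves. No member was called in C3-cJunKO against C3 by the edgeR quasi-likelihood test (0% against 0.550% of all 13993 genes), none by DESeq2, and 1 had an unadjusted p under 0.05. Scaled by library size, none was called either, against 0.507% of all genes. The gene with the unadjusted p was Rpl5, which with Rpl11 carries the 5S RNA and can bind Mdm2, at 366, 304, 334, 321 and 354 CPM in C3-cJunKO and 286, 301, 310.2, 284 and 309 CPM in C3, a difference of 0.18 ± 0.07 (SE, n = 5 per group, adjusted p = 0.583), or 0.16 without the C3 library of 9 weeks. The median log2 difference was 0.01 with TMM and 0.01 with library size scaling, with 43 members higher and 35 lower (TMM). Without the C3 library of 9 weeks none was called and the median was 0.09, with 68 members higher. The standard errors in this comparison ran from 0.07 to 0.69, and the widest were those of short genes such as Rps29, whose difference was -1.09 ± 0.69 (SE, n = 5 per group, adjusted p = 0.794), and -0.11 without the C3 library of 9 weeks. Age pairs did not share a direction: all 78 members were higher in C3-cJunKO at 3 weeks (median log2 ratio 0.54, TMM), 5 at 5 weeks (median -0.24), 67 at 7 weeks (median 0.23), 11 at 9 weeks (median -0.33) and 27 at 12 weeks (median -0.10). Against WT-C3, the same C3-cJunKO libraries had 45 members lower and none higher (57.7% against 21.5% of all genes, of which 11.3% lower and 10.3% higher), with a median of -0.51. With library size scaling 37 were lower, 47.4% against 8.35% of all genes, and 5 higher, 6.41% against 16.7% (53.8% against 25.1% in either direction), with a median of -0.43.

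In that comparison the shortest members were again furthest apart. Rps29 was at 4.87, 3.04, 6.73, 4.59 and 5.24 CPM in C3-cJunKO, against 38.4 to 77.1 CPM in WT-C3, a log2 difference of -3.49 ± 0.22 (SE, n = 5 per group, adjusted p = 1.21e-06). Rpl38 was at 8.15, 5.2, 9.69, 6.62 and 9.04 CPM and differed by -2.59 ± 0.18 (SE, n = 5 per group, adjusted p = 2.66e-06). Rps28, a small subunit protein at the exit of the mRNA channel, was at 11.1, 4.87, 10.8, 7.88 and 9.66 CPM in C3-cJunKO and at 43.7, 36.6, 54.6, 57.1 and 60.9 CPM in WT-C3, and differed by -2.52 ± 0.21 (SE, n = 5 per group, adjusted p = 9.48e-06). None of these 3 overlapped between the groups. The C3-cJunKO libraries held 20619191 to 31717449 counts against 9001002 to 16264172 in WT-C3, so depth and group cannot be told apart for the short members here either. The comparisons of C3 and of C3-cJunKO with WT-C3 share the WT-C3 libraries.

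In C22 nerves ribosomal protein mRNAs lay above those of WT-C22, and how many passed the test turned on the scaling. With TMM, 17 members were higher and none lower, 21.8% against 42.4% of all genes called in either direction. The share called higher, 21.8% against 21.9%, was that of genes at large, while none was lower against 20.5% of all genes. The median log2 difference was 0.37, against 0.00 over all genes, and 77 of the 78 fitted differences were above 0. With library size scaling 60 members were higher and none lower, 76.9% against 39.1% of all genes higher (51.6% called in either direction), with a median of 0.53 against 0.17 over all genes. The 17 were all among the 60. Among the 17 were 10 of the 21 members with 600 to 1000 coding bases and none of the 6 with up to 250 bases, although the medians of these 2 ranges were 0.33 and 0.90. Those shares, 47.6% and 0%, stand beside 42.8% and 31.8% of other protein-coding genes in the same ranges of length. Spearman's rho with coding length was -0.504 over the 78 members and -0.008 over 12766 other protein-coding genes.

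Rplp0, the scaffold of the stalk, had the smallest adjusted p. It was at 557, 494, 514, 564 and 644 CPM in WT-C22 and at 876, 1154, 777, 731 and 767 CPM in C22, without overlap, and the log2 difference was 0.63 ± 0.13 (SE, n = 5 per group, adjusted p = 0.00256), or 0.79 with library size scaling. Rpl10a, a protein of the L1 stalk, was at 123, 99.8, 118, 112 and 150.1 CPM in WT-C22 and at 225, 224, 157, 153 and 161 CPM in C22. These ranges did not overlap, and the difference was 0.60 ± 0.14 (SE, n = 5 per group, adjusted p = 0.0055). Rpl7l1, a paralogue of Rpl7 with a role in ribosome assembly, was at 49.4, 47.8, 53.5, 52.2 and 62.1 CPM in WT-C22 and at 73.1, 78.9, 65.7, 61.0 and 61.6 CPM in C22, and differed by 0.35 ± 0.09 (SE, n = 5 per group, adjusted p = 0.0109). The highest WT-C22 library lay above the lowest C22 library. Rpsa, known also as the laminin receptor, was at 349.5, 315, 387, 412 and 476 CPM in WT-C22 and at 505, 637, 490.1, 502 and 498 CPM in C22, highest at 5 weeks, with a difference of 0.43 ± 0.12 (SE, n = 5 per group, adjusted p = 0.0123). Among the short members, Rps29 was at 4.08, 12.1, 3.0, 3.24 and 6.96 CPM in WT-C22 and at 44.2, 10.2, 5.66, 5.08 and 5.03 CPM in C22. Only the C22 library of 3 weeks stood clear of the control range, and the difference was 1.31 ± 0.67 (SE, n = 5 per group, adjusted p = 0.135).

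The C22 excess was largest in the youngest libraries. At 3 weeks all 78 members were higher in C22 than in WT-C22, with a median log2 ratio of 0.81 (TMM). At 5 weeks 75 were higher (median 0.74), at 7 weeks 76 (median 0.25) and at 9 weeks 65 (median 0.14). At 12 weeks 10 were higher and 68 lower (median -0.27), and with library size scaling 26 were higher (median -0.10). Leaving out the C22 library of 3 weeks or that of 5 weeks left 7 members called in each case, 8.97% of them against 36.2% and 38.8% of all genes. Without the WT-C22 library of 7 weeks 8 were called, 10.3% against 36.9% of all genes, and without the WT-C22 library of 12 weeks 36, 46.2% against 43.0%. With age as a block 10 members were called, 12.8% against 44.1% of all genes.

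The change in C22 differed from the change in C3 in 48 members, each with the C22 change higher, 61.5% against 12.1% of all genes (4.75% in that direction). None had a lower change, against 7.31% of all genes. The median of the difference of changes was 0.90 with TMM. With library size scaling 57 members had a higher change in C22, 73.1% against 8.34% of all genes, and none a lower one, against 4.93% (13.3% in either direction), with a median of 1.01. Rps15a had the smallest adjusted p, with a difference of changes of 1.20 ± 0.20 (SE, n = 5 per group, adjusted p = 0.00042). It was at 75.8, 73.8, 61.1, 70.3 and 73.8 CPM in WT-C22 and at 128, 103, 83.5, 76.3 and 81.0 CPM in C22, beside the fall in C3 given above. Rpl30, whose yeast counterpart binds its own transcript, had a difference of changes of 1.54 ± 0.32 (SE, n = 5 per group, adjusted p = 0.00303). It was at 123, 112, 146, 198 and 217 CPM in WT-C3, 52.2, 59.9, 51.5, 108 and 93.2 CPM in C3, 18.4, 22.5, 19.0, 19.2 and 24.0 CPM in WT-C22 and 39.9, 31.1, 21.3, 22.7 and 22.0 CPM in C22. Rpl39 differed by 2.61 ± 0.56 (SE, n = 5 per group, adjusted p = 0.00403) and Rpl34 by 1.59 ± 0.35 (SE, n = 5 per group, adjusted p = 0.00438). The 6 shortest members were all among the 48, with a median of 2.71, and the 132 other protein-coding genes of up to 250 bases had a median of 0.44. With the offset that follows coding length 39 members were called, 50% against 9.41% of all genes. When the C3 library of 9 weeks was left out 55 were called, 70.5% against 13.9% of all genes. The difference of changes was then 1.24 for Rps15a, 1.70 for Rpl30, 2.83 for Rpl39 and 1.73 for Rpl34, with a median of 3.20 in the 6 shortest members.

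**Figure D4:**
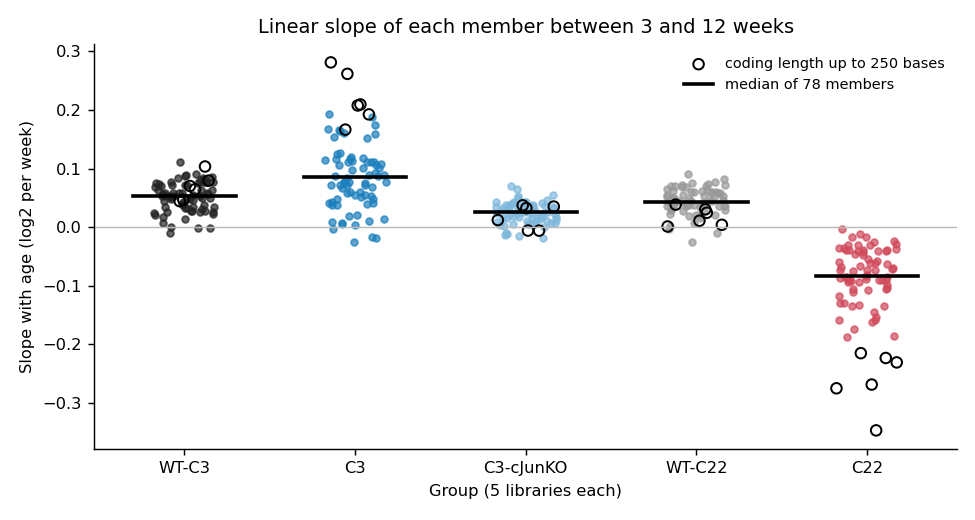
Linear slope of each of the 78 members between 3 and 12 weeks in log2 units per week, by group with 5 libraries each; open circles mark the 6 members with up to 250 coding bases and bars the median. All slopes are below 0 in C22, with a median of -0.08 per week, and most are above 0 in the other 4 groups.

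The fitted slopes with age were above 0 for most members in 4 groups and below 0 for all members in C22, while few passed the test of age. The linear slope was above 0 for 75 members in WT-C3 (median 0.05 log2 units per week), 74 in C3 (median 0.09), 70 in C3-cJunKO (median 0.03) and 75 in WT-C22 (median 0.04). In C22 it was below 0 for all 78 (median -0.08). The median over all 15298 genes was between -0.001 and 0.002 in each group. A natural spline with 3 degrees of freedom in a fit of all 25 libraries left 5 residual degrees of freedom, and called no member in WT-C3 (0% against 0.693% of all genes), C3-cJunKO (against 3.38%) or WT-C22 (against 2.86%). It called 1 in C3, Rpl21 (1.28% against 2.27% of all genes, 1.37% rising), and 1 in C22, Rpl29 (1.28% against 0.752%). With a linear slope, which left 15 residual degrees of freedom, 30 members rose with age in C3, 38.5% against 5.96% of all genes (3.52% rising and 2.44% falling). That count rested on the ends of the age range: without the C3 library of 3 weeks no member was called (0% against 0.464% of all genes), and without that of 12 weeks 3 were (3.85% against 2.09%). Leaving out the C3 library of 9 weeks, 22 rose, all of them among the 30, 28.2% against 5.64% of all genes, and 74 slopes were above 0 with a median of 0.08. In C22 4 members fell, 5.13% against 0.784% of all genes, in WT-C22 2 rose (2.56% against 7.77%), in WT-C3 1 rose (1.28% against 2.62%, of which 1.56% falling) and in C3-cJunKO none passed (against 5.94%). In C22 the count was 0 without the library of 3 weeks (against 0.00653% of all genes) or of 9 weeks (against 0.385%). It was 1 without that of 5 weeks (against 0.391%) and 13 without that of 12 weeks (16.7% against 3.06% of all genes). In WT-C22 it was 0 without any 1 of the 5 libraries, against 0.829 to 7.73% of all genes. In WT-C3 it was 0 without the library of 3 weeks, against 0% of all genes.

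Rpl21, a large subunit protein, was at 169.9, 201, 205, 269 and 298 CPM in C3, with a slope of 0.09 ± 0.01 log2 units per week (SE, adjusted p = 0.0376 with the spline and 0.00162 with the slope, and 0.00296 with the slope without the library of 9 weeks). In WT-C3 it was at 253, 274, 323, 329.8 and 442 CPM, with a slope of 0.09 ± 0.01 (adjusted p = 0.0736 and 0.00287). Rpl29, a large subunit protein that is dispensable for survival in mice, was at 19.1, 9.13, 8.02, 6.24 and 7.58 CPM in C22, with a slope of -0.14 ± 0.03 (adjusted p = 0.0220 and 0.0210). Pseudogenes matched to Rpl29 by sequence held more counts than the gene in these libraries. They summed to 55.3, 62.6, 52.7, 56.2 and 55.6 CPM (library size) in C22, and their part in the slope was not tested. The largest slopes in C22 were those of short members, Rps29 with -0.35 ± 0.10 and Rps28 with -0.27 ± 0.08, whose adjusted p of the linear test were 0.0949 and 0.0940. Without the C22 library of 3 weeks, or without that of 9 weeks, no member was called by the spline in C22, against 0.0196% and 0.00653% of all genes. Leaving out a C3 library gave 3, 24, 22, 3 and 6 calls by the spline in C3, in turn from the youngest to the oldest library. These were 3.85, 30.8, 28.2, 3.85 and 7.69% of the members, against 0.673, 7.02, 7.56, 1.88 and 1.46% of all genes in the same fits. Age courses did not differ between model and control past the threshold: no member passed in C3 against WT-C3 (0% against 0.0261% of all genes) or in C22 against WT-C22 (against 0.0523%). Of the 78 members, 2 and 63 had an unadjusted p under 0.05 in these tests by the spline, and 0 and 73 by the linear slope, for which the smallest adjusted p in C22 against WT-C22 was 0.0513. The slope in C22 was below that in WT-C22 for all 78 members, with a median difference of -0.13 per week.

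Between the control groups, which differ in strain, the set was lower in FVB/NRJ than in C57BL/6J. In WT-C22 against WT-C3, 59 members were lower and none higher, 75.6% against 21.7% of all genes (11.7% lower and 9.99% higher), with a median log2 difference of -0.76. Scaled by library size, 55 were lower and none higher, 70.5% against 20.3% of all genes (11.7% lower and 8.6% higher), with a median of -0.78. At each age most members were lower: 74 at 3 weeks, 76 at 5, 73 at 7, 75 at 9 and 65 at 12 weeks. At 5 weeks, where the libraries held 10196601 and 13416665 counts, the median log2 ratio was -0.65. The same dependence on length was seen, with medians of -2.44 in the 6 members of up to 250 bases, -1.27 in the 21 of 250 to 400 bases and -0.24 in the 21 of 600 to 1000 bases, and of -0.51 in the 132 other genes of up to 250 bases. Strain, depth and any other difference between the control colonies cannot be told apart here.

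The members with the smallest adjusted p lay far below this trend, and for 3 of them pseudogenes had higher levels in WT-C22. Rpl29 was at 129, 123, 141, 119 and 128 CPM in WT-C3 and at 5.77, 5.95, 4.69, 4.69 and 5.11 CPM in WT-C22, a log2 difference of -4.62 ± 0.09 (SE, n = 5 per group, adjusted p = 3.43e-11). In C22 it was at 6.24 to 19.1 CPM, and in C3 and C3-cJunKO it was at 102 to 150.2 CPM. Gm8210, a pseudogene on chromosome 1 whose sequence matches the coding sequence of Rpl29 at 99.4% of its bases, was at 19.3, 12.2, 16.3, 17.5 and 22.4 CPM (library size) in WT-C22 and at 0 in every WT-C3 library. Rps2, of the small subunit near the mRNA entry, was at 420.5, 365, 430.0, 579 and 413 CPM in WT-C3 and at 42.1, 47.5, 42.4, 48.1 and 63.9 CPM in WT-C22, a difference of -3.18 ± 0.15 (SE, n = 5 per group, adjusted p = 5.5e-08). Its pseudogene Rps2-ps10, on chromosome 18 and 99.4% identical, was at 158, 158, 179, 183 and 296 CPM in WT-C22 and at 4.29, 3.95, 5.33, 4.59 and 2.52 CPM in WT-C3. Rpl34 was at 102, 102, 110.4, 155 and 127 CPM in WT-C3 and 21.6, 22.0, 16.9, 18.9 and 26.8 CPM in WT-C22, and differed by -2.49 ± 0.15 (SE, n = 5 per group, adjusted p = 3.77e-07). Rpl34-ps1, on chromosome 6, was at 16.6, 19.4, 14.4, 19.8 and 22.4 CPM in WT-C22 and at 0.86, 0.89, 1.44, 1.22 and 1.23 CPM in WT-C3. Rpl35a, of the large subunit, was at 75.5, 74.6, 95.6, 126 and 116 CPM in WT-C3 and 16.0, 16.1, 15.4, 15.4 and 20.4 CPM in WT-C22, a difference of -2.54 ± 0.16 (SE, n = 5 per group, adjusted p = 5.08e-07), and the 22 pseudogenes matched to it summed to 0.933 to 3.22 CPM in the libraries of both control groups.

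**Figure D5:**
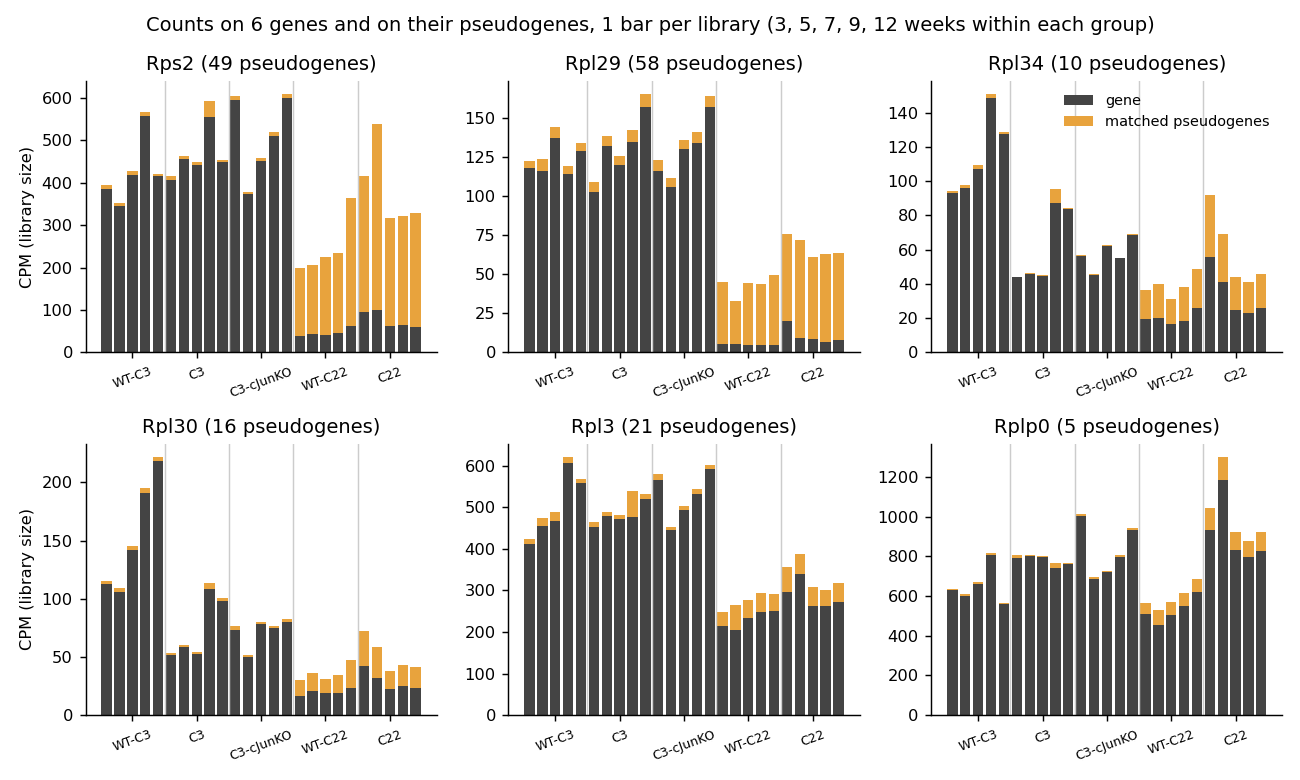
CPM (library size scaling) of 6 members (dark) and of the pseudogenes matched to each (orange, stacked), with 1 bar per library in age order within each group. In the 10 FVB/NRJ libraries the pseudogenes of Rps2 and Rpl29 outnumber the gene itself, and in the 15 libraries of WT-C3, C3 and C3-cJunKO they are a thin cap.

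In all, 984 annotated pseudogenes matched 75 members at 90% identity or more over at least 70% of the coding sequence. Adding their counts to the parent gene, an alternative chosen after seeing the data, brought the difference of WT-C22 against WT-C3 from -4.62 to -1.56 for Rpl29, from -3.18 to -0.80 for Rps2, from -2.49 to -1.56 for Rpl34, from -2.95 to -2.12 for Rpl30 and from -1.10 to -0.89 for Rpl3. Rpl35a stayed at -2.45. All 6 remained called, as did 58 of the 59 members called without it, beside 21.5% of all genes. In the other comparisons the count of calls with this sum was 40 for C3 against WT-C3 (51.3% against 23.8% of all genes) and 16 for C22 against WT-C22 (20.5% against 42.4%). It was 45 for the difference of changes (57.7% against 12.0%), 0 for C3-cJunKO against C3 (against 0.557%) and 45 for C3-cJunKO against WT-C3 (against 21.6%). The counts were made against the C57BL/6J genome, with fragments of more than 1 place not counted, and the part of sequence differences between strains in these values was not tested.

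Paralogue pairs are set side by side here, with no test between partners. Rps27l was at 27.8, 22.6, 27.4, 34.2 and 32.8 CPM in WT-C3 and at 9.92, 13.1, 11.8, 26.6 and 17.8 CPM in C3, overlapping through the library of 9 weeks, and differed by -0.98 ± 0.22 (SE, n = 5 per group, adjusted p = 0.00786), or by -1.14 without that library. In C22 against WT-C22 it differed by 0.57 and Rps27 by 0.46, neither past the threshold. Rpl22 differed by -0.37 ± 0.13 (SE, n = 5 per group, adjusted p = 0.059) in C3 against WT-C3, and was not called, beside -0.98 for Rpl22l1, which was. Rpl22 was called too without the C3 library of 9 weeks, at -0.45 (adjusted p = 0.0229). Rpl7 differed by -0.06 and Rpl7l1 by 0.19 in the same comparison, neither called. Rps4l, a paralogue of Rps4x, was at 16.6, 16.7, 18.9, 16.8 and 19.3 CPM in WT-C3 and at 7.88, 7.12, 7.74, 7.5 and 11.8 CPM in WT-C22, a difference of -1.06 ± 0.14 (SE, n = 5 per group, adjusted p = 0.000189). Rps4x differed by -0.07 there and was not called.

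Members known for roles outside the ribosome or in disease are given next. Rps6, whose phosphorylation by S6 kinase reads out mTORC1 activity, was at 171, 166, 194, 208 and 228 CPM in WT-C3, 128, 149, 148, 180.3 and 185 CPM in C3, 146, 141, 157, 169 and 189 CPM in WT-C22 and 214, 226, 175, 179.9 and 173 CPM in C22. It differed by -0.30 in C3 and by 0.26 in C22, neither called, and the difference of changes was 0.54 ± 0.16 (SE, n = 5 per group, adjusted p = 0.032), a call that was lost in 11 of the 29 alternatives. Rpl11, the partner of Rpl5 in the 5S particle, was at 165, 152, 184, 212 and 211 CPM in WT-C3 and 91.3, 117, 109, 198 and 156 CPM in C3. It differed by -0.48 ± 0.18 (SE, n = 5 per group, adjusted p = 0.0788), and by -0.64 (adjusted p = 0.0152) without the C3 library of 9 weeks. Rpl5, in contrast, differed by -0.14. Rps19, mutated in Diamond-Blackfan anaemia, was at 60.4, 59.2, 61.3, 66.0 and 107 CPM in WT-C22 and 134, 129, 81.9, 89.9 and 81.4 CPM in C22. It differed by 0.53 ± 0.20 (SE, n = 5 per group, adjusted p = 0.0517), and by 0.69 (adjusted p = 0.0132) with library size scaling. Rplp1, the most abundant member per kilobase, was at 333, 333, 429.9, 576 and 447 CPM in WT-C3, 172, 244, 219, 351 and 362 CPM in C3, 153, 163, 146, 169 and 246 CPM in WT-C22 and 318, 289, 171, 180.1 and 173 CPM in C22. It fell in C3 by 0.66 ± 0.22 (SE, n = 5 per group, adjusted p = 0.0431), a call that was lost with library size scaling (adjusted p = 0.0788) and in 7 other alternatives, but not without the C3 library of 9 weeks, where it fell by 0.76 (adjusted p = 0.0320). Of the 20 members of this list measured, 11 were lower in C3 (55% against 11.4% of all genes), 3 were higher in C22 (15% against 21.9%) and 13 had a higher change in C22 (65% against 4.75%). There were 12 lower in C3 without its library of 9 weeks.

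Other genes of the translation apparatus were called in C3 in smaller shares than the 56.4% of the set, and are given beside the 12.5% of all genes that were higher and the 11.4% that were lower there. The lists were not matched to the set in coding length. Of the members of 600 to 1000 bases 4.76% were called in C3, against 22.5% of other protein-coding genes of that range. Of 15 genes listed as elongation and nascent chain factors 1 was higher and 1 lower in C3 against WT-C3 (median -0.06). They were Eef2, at 0.31 ± 0.08, and Nap1l1, at -0.26 ± 0.08. Nap1l1 encodes a nucleosome assembly protein rather than a translation factor, although it was on this list. Without the C3 library of 9 weeks Nap1l1 was not called (-0.21, adjusted p = 0.0581). Of 36 initiation factors 2 were higher and 3 lower (median 0.02), among them Eif1 at -0.36 ± 0.09 and Eif3e at -0.33 ± 0.08. Of 46 nucleolar assembly factors 13 were higher (28.3%) and 3 lower (median 0.12). Nop10, whose protein is very small, was at -1.04 ± 0.19, while Mybbp1a was at 0.41 ± 0.08 and Bop1 at 0.62 ± 0.13. Of 15 genes of RNA polymerase I and its factors 4 were higher and 1 lower (median 0.25), with Polr1a at 0.37 ± 0.07. Of 26 mTORC1 and TOP mRNA regulators 6 were higher and 2 lower (median 0.15), with Rheb, the activator of mTORC1, lower at -0.37 ± 0.07. Of 77 mitochondrial ribosomal protein genes 3 were higher and 13 lower (16.9%, median -0.10), and 17 were lower without the 9-week library. Fau, which encodes a ribosomal protein fused to a ubiquitin-like domain and is outside the symbol rule, was at -0.81 ± 0.28 and not called, but was at -1.07 (adjusted p = 0.00751) without the C3 library of 9 weeks. The genes named here other than Nap1l1 and Fau kept their calls without that library.

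In C22 against WT-C22, where 21.9% of all genes were higher and 20.5% lower, nucleolar assembly factors were called higher more often than genes at large. Of the 46 factors 33 were higher (71.7%) and 3 lower (median 0.34), with Nop56, of the box C/D particle, at 0.57 ± 0.10 and Sbds, which helps to release Eif6 from new large subunits, at -0.55 ± 0.06. Of the 15 RNA polymerase I genes 9 were higher (60%) and none lower (median 0.29), with Taf1b at 0.71 ± 0.08 and Polr1e at 0.69 ± 0.11. Of the 77 mitochondrial ribosomal protein genes 25 were higher (32.5%) and none lower (median 0.25). Of the 36 initiation factors 8 were higher (22.2%, near the share of all genes) and 2 lower (median 0.04), with Eif4a1 at 0.44 ± 0.07. Of the 26 mTORC1 and TOP mRNA regulators 6 were higher (23.1%) and 3 lower (median 0.03). Mycn, a driver of ribosome biogenesis, was at 1.87 ± 0.20 in C22 and 0.77 ± 0.15 in C3, both called. Of the 15 genes listed as elongation and nascent chain factors 3 were higher (20%) and 1 lower (median 0.20). In the test of the C22 change against the C3 change itself, 6 of the 46 nucleolar factors were higher and 1 lower, 1 of the 15 RNA polymerase I genes was higher, and 19 of the 77 mitochondrial ribosomal protein genes were higher (24.7% against 4.75% of all genes). Between C3-cJunKO and C3 no gene of these lists was called, and the 6 lists had medians between -0.02 and 0.09. Between the controls, 24 of the 77 mitochondrial ribosomal protein genes were lower in WT-C22 (31.2% against 11.7% of all genes) and none higher (median -0.16), and at most 4 genes of any of the other lists were called in 1 direction.

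Cell type markers moved with the groups as follows. The 5 cycling markers were all higher in C3 (median 1.94) and in C22 (median 2.06), where their summed level was 23.4 to 74.5 CPM and 25.1 to 64.9 CPM, against 6.29 to 27.7 CPM in WT-C3 and 6.48 to 16.0 CPM in WT-C22. Of the 9 myelinating Schwann cell markers 2 were higher and 1 lower in C3, and 3 higher and 4 lower in C22. Of all genes 12.5% were higher and 11.4% lower in C3, and 21.9% and 20.5% in C22. The 9 markers summed to 37679 to 55971 CPM in C3 and 56243 to 98205 CPM in WT-C3, without overlap. They summed to 25463 to 38604 CPM in C22 and 45476 to 92519 CPM in WT-C22, again without overlap, and to 35533 to 65925 CPM in C3-cJunKO. The 9 macrophage markers summed to 294 to 400.1 CPM in C3 and 300.0 to 530.4 CPM in WT-C3. Perineurial markers were lower in 3 of 4 in C3 and in 4 of 4 in C22. Skeletal muscle markers summed to 7.72 to 9524 CPM over the libraries and overlapped between all groups, and blood markers to 45.3 to 1573 CPM, highest in a WT-C3 library; none of either list was called in C3 or in C22. The 3 repair Schwann cell markers tested of 7 were all higher in C3 (median 2.34), while in C22 2 were higher and 1 lower (median 1.41). Endothelial markers were lower in 1 of 5 in C3 and 3 of 5 in C22, pericyte markers in 2 of 4 and 4 of 4, and macrophage markers in 1 of 9 and 2 of 9, with 1 higher in C22. Fibroblast markers were lower in 0 of 6 and 1 of 6, no adipocyte marker was called in C3 or in C22, and 1 of 4 mast cell markers was higher in C22. Without the C3 library of 9 weeks 1 fibroblast marker was higher, 3 of 4 pericyte markers and no macrophage marker were lower, and 1 myelinating Schwann cell marker was higher and 2 lower in C3, while the other lists had the same counts. Between the controls all 4 mast cell markers (median 1.82) and 3 of 6 adipocyte markers (median 0.96) were higher in WT-C22 than in WT-C3, where 9.99% of all genes were, and 1 endothelial, 1 fibroblast and 1 pericyte marker were higher and 1 perineurial marker lower. Mast cell markers summed to 51.4 to 194.8 CPM in WT-C22 and 24.6 to 60.4 CPM in WT-C3. In C3-cJunKO against WT-C3, 3 of 4 blood markers were lower (median -2.09, against 11.3% of all genes lower), with sums of 47.9 to 175 CPM against 117 to 1573 CPM. There the 5 cycling markers were higher (median 2.00), 2 myelinating Schwann cell markers were higher and 1 lower, 1 repair Schwann cell marker was higher and 1 lower, and 1 macrophage and 1 perineurial marker were lower. Between C3-cJunKO and C3 only Jun, among the repair Schwann cell markers, was called, and without the C3 library of 9 weeks Runx2 of that list was lower too. The 7 T and B cell markers did not reach the filter and summed to at most 26.0 CPM. In whole nerve, fewer cells of a type and less RNA per cell cannot be told apart, and the part of cell composition in the ribosomal protein differences was not tested.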

How the data were processed

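Whole sciatic nerve RNA was sequenced after poly(A) selection with a strand-marking kit, in 25 libraries of 5 groups and 5 ages. According to their methods and the labels, the authors trimmed reads with Cutadapt 2.10, aligned them with STAR 2.7.5a to GRCm39 with the human PMP22 transgene locus added, collapsed duplicates with UMI-tools 1.1.1 and counted fragments per gene of Ensembl 110 with HTSeq 0.12.4. The deposited values are raw counts, which the authors left without normalization; ambiguous and multiply aligned fragments are not in them. Symbols, coordinates and coding lengths were taken from GENCODE M39, and start windows from RefSeq.

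The members and the gene lists were chosen with earlier results of these data known. Comparisons were fitted with edgeR 4.0.16 (R 4.3.3) by the quasi-likelihood test with TMM factors, on the 13993 genes with log2 CPM above 1 in at least 7 libraries, and p-values were adjusted by Benjamini-Hochberg over all of them at a threshold of 0.05. Age was tested on 15298 genes kept by filterByExpr. All 78 members passed both filters. TMM-scaled CPM divides by the library size times its TMM factor. The code was tested on simulated data. Values in every library are given for 26 members, those with the smallest adjusted p in each comparison and a part of the paralogues and of the members with known roles outside the ribosome; other members appear by counts and ranges. The rule for named genes asked for such values for all members of the last 2 lists, which were shortened.

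Alternatives were library size scaling, median-ratio size factors, other filters, a fit of all 25 libraries, DESeq2 1.42.0, a block for age, other age models and leaving out each library. Same-aged libraries of compared groups were checked for pairing by the correlation of their deviations from the group means: every age was above 0.1 only in C3-cJunKO against C3, from 0.143 to 0.614. Libraries held 2140142 to 49072746 counts, and the share of the short members varied with depth, as given above. Reads were not analysed here.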

Additional observations from a re-analysis of the deposited data

Results flagged for a closer look

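Among the 26 members with values in every library and the summed share, 135 groups of 5 libraries were examined for a value far from the other 4 (Dixon's ratio above 0.71), and 17 were found. Chance gives about 1 in 20 for independent groups. The members share the same 25 libraries, so 1 unusual library can be flagged in several of them, and the 17 cannot be set against that rate. In WT-C22 the library of 12 weeks was the highest for Rps2 (63.9 TMM-scaled CPM), Rpl35a (20.4 CPM), Rplp1 (245.8 CPM), Rps4l (11.8 CPM), Rpl11 (145 CPM) and Rps19 (107 CPM). In C22 the library of 3 weeks was the highest for Rps29 (44.2 CPM), Rpl39 (42.7 CPM), Rps27 (73.4 CPM) and Rpl29 (19.1 CPM), that of 5 weeks for Rpsa (637 CPM) and Rpl5 (391 CPM), and that of 12 weeks the lowest for Rps4l (7.08 CPM). In C3 the library of 9 weeks, of 2140142 counts, was the highest for Rps29 (45.8 CPM) and Rpl41 (123 CPM). The remaining values were Rpl22l1 in WT-C3 at 9 weeks (57.8 CPM, highest) and Rpl30 in C3-cJunKO at 5 weeks (48.5 CPM, lowest).

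The C22 change differed from the C3 change in 48 of the 78 members by the test of the difference itself (edgeR quasi-likelihood test, Benjamini-Hochberg adjustment). Of the members with values in every library, the differences of changes on the log2 scale were 3.93 for Rps29, 3.19 for Rps28, 2.81 for Rpl38, 2.61 for Rpl39, 2.44 for Rpl41 and 2.22 for Rps27. They were 1.59 for Rpl34, 1.54 for Rpl30, 1.53 for Rps27l, 1.42 for Rpl35a, 1.23 for Rpl22l1 and 1.20 for Rps15a. They were 1.00 for Rplp1, 0.98 for Rps19, 0.93 for Rpl29, 0.91 for Rpl15, 0.68 for Rpl10a and 0.54 for Rps6. Strain and copy number cannot be told apart in this difference.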

How the results depend on the processing

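No median changed direction under any alternative that was run, apart from those of C3-cJunKO against C3, which lay between -0.07 and 0.09 when a library was left out. Over the 26 members with values in every library and Rpl19, 78 differences were called in the 6 comparisons, and 66 kept their call under every alternative. Of their 1662 alternative values 110 were no longer called and none changed direction. The 12 that lost a call under at least 1 alternative were Rpl19, Rplp1 and Rpl41 in C3 against WT-C3, Rpl19, Rps2 and Rps15a in C22 against WT-C22, Rps19, Rplp1, Rpl29 and Rps6 in the difference of changes, and Rplp1 and Rps6 in C3-cJunKO against WT-C3. With library size scaling 60 members were called in C22 against WT-C22 in place of 17 (76.9% against 51.6% of all genes). For age it called 1 in WT-C3 (against 0.719% of all genes) and 3 in C3 (against 2.28%). A linear slope called 1 member in WT-C3, 30 in C3, 2 in WT-C22 and 4 in C22, against 2.62, 5.96, 7.77 and 0.784% of all genes. A spline with 2 degrees of freedom called 1 in WT-C3, 11 in C3 and 2 in C22, against 1.59, 3.4 and 0.431%. The offset by coding length was chosen after seeing the data, as was the sum with pseudogenes. It left 27 calls (34.6% against 19.2% of all genes) and a median of -0.34 in C3 against WT-C3. In C22 against WT-C22 it gave 28 calls (35.9% against 43.9%). Leaving out 1 library gave 26 to 49 calls in C3 against WT-C3, 7 to 36 in C22 against WT-C22, 3 to 24 for age in C3 and 0 to 1 for age in C22 by the spline. Over all genes the shares called in these fits were 16.0 to 26.3%, 36.1 to 43.1%, 0.673 to 7.56% and 0.00653 to 0.881%. By the linear slope, in fits added after seeing the data, leaving out 1 library gave 0 to 1 calls in WT-C3, 0 to 28 in C3, 0 in WT-C22, 0 to 13 in C22 and 0 to 1 for the age course of C22 against WT-C22. Over all genes these shares were 0 to 2.66%, 0.464 to 5.64%, 0.829 to 7.73%, 0.00653 to 3.06% and 0 to 0.574%. With age as a replicate block 10 members were called in C22 against WT-C22 (12.8% against 44.1% of all genes). In C3 against WT-C3 it called 54 (69.2% against 26.4%) and for the difference of changes 53 (67.9% against 14.7%). In C3-cJunKO against WT-C3 it called 51 (against 24% of all genes), in WT-C22 against WT-C3 62 (against 26.6%) and in C3-cJunKO against C3 none (against 1.95%). Libraries of 1 age came from separate pools of animals that shared that age, and only in C3-cJunKO against C3 did the deviations of same-aged libraries correlate above 0.1 at every age. The cause of these shifts was not tested. In the C3 library of 9 weeks 1 CPM is 2.14 fragments. There Rps4l had 47 counts, Rpl22l1 53, Rps27l 57, Rpl39 66 and Rps29 98, while Rpl41, the shortest member, had 264.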
